A study of Oryctolagus cuniculus with 6 samples.

Results

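The genes described here build and serve the gates of the nucleus: importins and transportins, exportins, the karyopherin adaptors and the nucleoporins of the nuclear pore. They were chosen by words in the probe descriptions of the array (importin, exportin, karyopherin, nucleoporin, transportin), which took 161 of 43603 probes and 71 of the 10355 genes or gene numbers on the array. The word transportin is also the start of transporting, and 82 of those probes, for 32 genes, matched only in that way. These are ion pumps and carriers, and they are counted apart. The remaining 79 probes belong to 39 genes, which are the members described below. Each gene is given by its brightest probe over the 6 arrays.

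The samples were New Zealand White rabbit blastocysts aged 6 days, compared on Agilent arrays that carried 2 dye-labelled extracts each. Vitrified embryos had been taken through mixtures of dimethyl sulphoxide and ethylene glycol and plunged into liquid nitrogen, and they were transferred to recipient females after warming. Frozen embryos had been cooled slowly in dimethyl sulphoxide with manual seeding of ice, and they were also transferred after thawing. Control embryos were untreated and had developed in vivo. Only embryos viable at collection were used, so both treatments combine cryopreservation, transfer and survival. There were 3 arrays of vitrified against control and 3 of frozen against control, and per the labels the control extract of a replicate number is the same on both of its arrays. The labels call the replicates biological and name no number of embryos per extract.

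Proteins enter and leave the nucleus through pores built of nucleoporins. An importin alpha adaptor binds the nuclear localisation signal of a cargo and is itself carried by importin beta, while other receptors of the importin beta family carry cargo directly. Exportins carry cargo out, and the small GTPase Ran, loaded with GTP inside the nucleus, sets the direction of both. In the blastocyst these routes serve cells that divide fast and must bring in newly made histones, ribosomal proteins and transcription factors.

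The probes of 3 genes are shown first, because the results turn on them and because their sequences decide which probes are separate readings. Each probe has 60 bases, is copied from the array files and is written 5′ to 3′. Capitals mark bases that a probe shares with another probe shown in the same group. The IPO7 probes do not overlap and cover bases 2826 to 3017 of the transcript on the array.
IPO7 A_04_P055294: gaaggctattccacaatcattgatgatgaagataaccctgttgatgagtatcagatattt
IPO7 A_04_P055293: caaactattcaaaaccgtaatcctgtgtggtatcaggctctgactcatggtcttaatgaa
IPO7 A_04_P055292: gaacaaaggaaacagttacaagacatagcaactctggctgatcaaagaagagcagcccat

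In the array files the IPO7 probes lie on chromosome 1, plus strand. The first is at 151286800 to 151286859 and the last at 151288273 to 151288332. The middle probe is listed from 151286872 to 151288272, so its 60 bases span 1401 bases of genome and cross a gap. The genome build of these coordinates is not given in the sources used here. All 3 probes have a reading frame with no stop codon before the last codon.

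The KPNA2 probe and the probes of 2 gene numbers, LOC100359310 and LOC100355976, form a chain on chromosome 19, minus strand. RefSeq's gene table for the rabbit assembly mOryCun1.1 lists both numbers as pseudogenes, and the array files describe their probes as karyopherin alpha 2. The KPNA2 probe shares 27 bases with the first of them, which shares 30 bases with the second, and every shared base is identical. Signal from the gene and from near-identical copies cannot be told apart with these probes, so the 3 values below are not 3 separate genes' readings.
KPNA2 A_04_P079334: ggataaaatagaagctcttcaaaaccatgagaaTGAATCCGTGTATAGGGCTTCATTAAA
LOC100359310 A_04_P079333: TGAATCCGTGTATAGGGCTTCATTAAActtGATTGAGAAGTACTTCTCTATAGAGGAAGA
LOC100355976 A_04_P079332: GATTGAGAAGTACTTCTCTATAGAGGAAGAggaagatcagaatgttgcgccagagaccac

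TNPO1 has 2 probes that abut in the transcript, at bases 2415 to 2474 and 2475 to 2534, and they share no base. The files give them no position in the genome.
TNPO1 A_04_P070398: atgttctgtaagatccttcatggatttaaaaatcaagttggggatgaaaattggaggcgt
TNPO1 A_04_P070397: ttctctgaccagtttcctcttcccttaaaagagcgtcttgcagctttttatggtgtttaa

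Of the 39 genes, 38 were tested, which required a signal well above background in 3 or more of the 12 channel measurements (6 arrays with 2 channels each). The exception was NUP210L, a relative of the pore membrane protein GP210, which was well above background in 1 of the 12. The brightest probe of 34 genes was well above background in all 12, and no member spot was saturated or left out as an outlier. More than 1 probe chosen by the words was present for 21 genes. The symbol of 4 genes differs from the array's wording: the KPNA1 probes are described as karyopherin alpha 5, KPNA5 as alpha 6-like, KPNA7 as alpha 2-like and RANBP6 as karyopherin beta 3-like. The green channels had 44.7% to 58% of all spots well above background, depending on the array, and the red channels 64.2% to 74.5%. The number of arrays limits the precision.

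Nuclear transport and pore genes of vitrified embryos were first compared with those of control embryos. None of the 38 passed limma's moderated test at adjusted p 0.05, against 0.0195% of all 30759 tested probes. At unadjusted p under 0.05, 2 genes were on the side of higher signal and 3 on the side of lower signal in vitrified embryos. Over all 8556 genes with a tested brightest probe those shares were 9.24% and 7.23%, and both members' counts are near what such shares of 38 would give. The median log2 fold change of the 38 was 0.089, and the median over all genes was -0.002. Of the members 25 were above 0 and 13 below, where 49.6% of all genes were above 0. The 25 include KPNA2 and both pseudogene numbers that share its bases, and these also enter the median as 3 genes. The members' median was 0.011 when arrays were centred on their median in place of loess. The log2 fold change had a 95% confidence interval inside -1 to 1, a change of less than 2-fold either way, for 37 of 38 genes. The exception was IPO7. The interval lay inside -0.5 to 0.5 for 27.

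The same comparison for frozen against control embryos also gave no member past the test, against 0.185% of all tested probes. At unadjusted p under 0.05 there were 3 genes on the higher side and 3 on the lower, and the shares over all genes were 5.59% and 7.41%. The median was 0.009, with 20 genes above 0 and 18 below, where 49.2% of all genes were above 0. KPNA2 and both pseudogene numbers are among the 18. All 38 intervals lay inside -1 to 1, and 25 lay inside -0.5 to 0.5. These 2 comparisons share control extracts, so their values are given side by side and not as independent readings. The contrast of vitrified minus frozen called 0 of 38 members and 0% of all tested probes, and at unadjusted p under 0.05 it held 3 members on the higher and 0 on the lower side, where all genes had 4.24% and 3.42%. Its median over members was -0.051 and over all genes 0.018, with 17 members and 53.6% of all genes above 0. The 17 again include KPNA2 and both pseudogene numbers. Without vitrified array 3 the members' median was 0.042, and without frozen array 1 it was 0.043. Taken within slides with no dye term, the members' median difference was 0.051 on slide 1 and 0.038 on slide 2. For 37 of 38 members the interval of the difference lay inside -1 to 1, and for 14 inside -0.5 to 0.5.

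**Figure D1:**
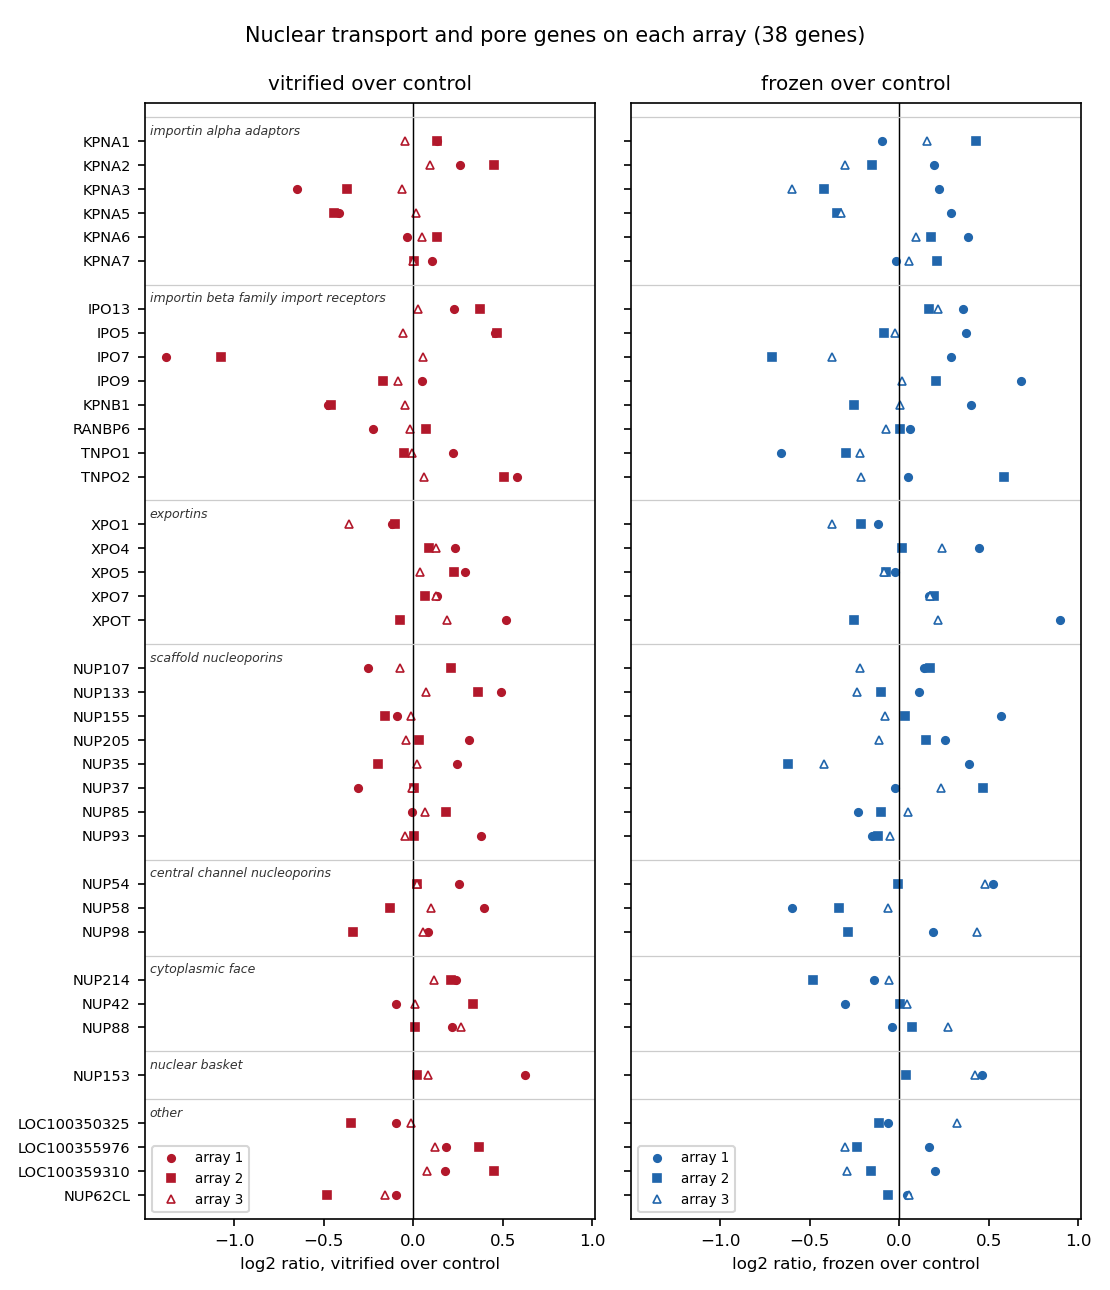
Each row is 1 of the 38 tested genes, grouped by role, and each point is the log2 ratio of vitrified over control (left) or frozen over control (right) on 1 of the 3 arrays of that treatment. Points of the third vitrified array lie near 0 for most genes, and IPO7 reaches -1.38 and -1.07 on the first and second vitrified arrays.

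The spread of the members differed between arrays. On vitrified array 3 their log2 ratios had an SD of 0.103, against 0.258 to 0.379 on the other arrays. The SD over all tested probes was also the smallest there, at 0.231 against 0.321 to 0.398. A ratio close to 0 on that array is therefore common to most members and is not particular to a gene. Leaving that array out gave no member call.

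IPO7 encodes importin 7, an import receptor known to carry ribosomal proteins and, together with importin beta, the linker histone H1. Its log2 ratio of vitrified over control was -1.38, -1.07 and 0.05 on arrays 1 to 3. Its log2 ratio of frozen over control was 0.29, -0.71 and -0.37. The first and second vitrified arrays thus lay below all 3 frozen arrays, while vitrified array 3 and frozen array 1 lay above 0. IPO7 was the lowest of the 38 members on vitrified arrays 1 and 2 and on frozen array 2, and ranked 24th from the lowest on vitrified array 3 and 26th on frozen array 1.

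Both channels show where those ratios come from. The log2 intensity of IPO7 was 9.72, 10.37 and 10.59 in vitrified embryos, against 11.11, 11.44 and 10.54 in the control channel of the same arrays. It was 11.06, 10.35 and 10.75 in frozen embryos, against 10.77, 11.06 and 11.13 in their control channel. The control signals of the same replicate number, which per the labels come from the same extract, differed between the vitrified and the frozen array by 0.34, 0.38 and -0.59. The median absolute difference over the members was 0.10, 0.23 and 0.18. On replicate 3 the control signal was thus the lowest of the 6 on the vitrified array and the second highest on the frozen array.

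The IPO7 ratio averaged -0.80 ± 0.76 in vitrified arrays and -0.26 ± 0.51 in frozen arrays (SD, n = 3 each). With the dye term, the fit gave a log2 fold change of -0.89 ± 0.26 for vitrified over control (SE, 95% interval -1.50 to -0.29, limma's unadjusted p = 0.0097, adjusted p = 0.193). Only 8 of the 8556 genes, 0.0935%, had a fold change as low or lower in that comparison, yet the gene did not pass the test over all probes. For frozen over control it gave -0.35 ± 0.26 (interval -0.96 to 0.25, adjusted p = 0.625), a value as low or lower in 5.19% of genes. The difference, vitrified minus frozen, was -0.54 ± 0.36 (interval -1.37 to 0.29, adjusted p = 0.775). Without vitrified array 1 the value for vitrified embryos was -0.51, and without vitrified array 3 it was -1.23, so the size rests on single arrays while its sign held without each of the 6 arrays. The frozen value was -0.54 without frozen array 1 and -0.21 without frozen array 3. The difference was -0.10 without vitrified array 1, -0.92 without vitrified array 3 and -0.32 without frozen array 1.

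For the 3 IPO7 probes, in the order printed above, the fold change for vitrified over control was -0.89, -0.93 and -0.80, and for frozen over control -0.35, -0.38 and -0.40. On vitrified array 1 the 3 probes had ratios of -1.38, -1.31 and -1.27, on vitrified array 2 they had -1.07, -1.26 and -0.87, and on vitrified array 3 they had 0.05, 0.09 and -0.11. The spread between arrays was therefore wider than that between probes. Within slide 1 the ratio was -1.38 on 1 vitrified array and averaged -0.21 on 2 frozen arrays, and within slide 2 it averaged -0.51 on 2 vitrified arrays and was -0.37 on 1 frozen array.

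**Figure D2:**
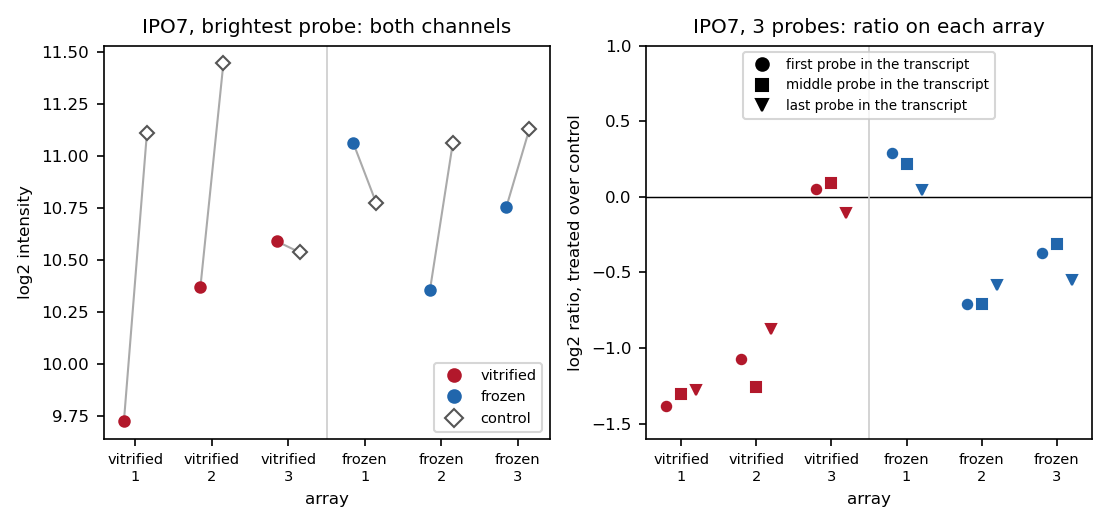
Left: log2 intensity of the brightest IPO7 probe in the treated channel (filled) and the control channel (open) of each array, joined by a line. Right: log2 ratio of treated over control for the 3 IPO7 probes on each array. The probes move together, from about -1.3 on vitrified array 1 to near 0 on vitrified array 3.

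In vitrified embryos the other 7 receptors of the importin beta family lay closer to 0. KPNB1 is importin beta 1, which carries the alpha adaptors with their cargo. Its ratios were -0.48, -0.46 and -0.05 in vitrified embryos and 0.40, -0.25 and 0.01 in frozen embryos, each over control. All 3 vitrified arrays were below 0, and the frozen arrays lay on both sides. The fitted fold change was -0.38 ± 0.13 for vitrified (SE, adjusted p = 0.221) and -0.003 ± 0.13 for frozen embryos (adjusted p = 0.996). The difference of -0.38 ± 0.18 did not pass (adjusted p = 0.676). Without vitrified array 1 the vitrified value was -0.25 and the difference -0.23, and without frozen array 1 the difference was -0.24. The 3 KPNB1 probes overlap by 20 bases from each to the next, and they gave -0.46, -0.38 and -0.28 in vitrified embryos. In frozen embryos they gave -0.05, -0.003 and 0.20. For the last of them the vitrified arrays were at -0.40, -0.27 and -0.12 and the frozen arrays at 0.24, 0.10 and 0.32. Its difference was -0.48 ± 0.14 (SE, limma's unadjusted p = 0.00908, adjusted p = 0.592).

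Transportin 1, encoded by TNPO1, imports RNA-binding proteins such as hnRNP A1, and TNPO2 encodes its close relative. TNPO1 had ratios of 0.22, -0.05 and -0.01 in vitrified embryos and -0.66, -0.30 and -0.22 in frozen embryos. For this brightest probe, all 3 frozen arrays were below 0 and below all 3 vitrified arrays. The fold change was 0.05 ± 0.12 for vitrified and -0.39 ± 0.12 for frozen embryos (SE, adjusted p = 0.856 and 0.234). Its second probe gave 0.02 and -0.34, and there frozen array 3 (-0.07) was above vitrified array 3 (-0.13). The difference, vitrified minus frozen, was 0.45 ± 0.17 (unadjusted p = 0.03, adjusted p = 0.644). Without frozen array 1 the frozen value was -0.26 and the difference 0.29.

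TNPO2 had ratios of 0.58, 0.50 and 0.06 in vitrified embryos and 0.05, 0.59 and -0.21 in frozen embryos. All 3 vitrified arrays were above 0, and the groups overlapped. With a fold change of 0.45 ± 0.14 it was the highest of the 38 genes in vitrified embryos (SE, unadjusted p = 0.0127, adjusted p = 0.203), and in frozen embryos it was at 0.21 ± 0.14. Without vitrified array 1 the vitrified value was 0.28, and its range over all alternatives was 0.28 to 0.74.

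IPO13, a receptor known in human cells to work in both directions, was at 0.22 ± 0.11 in vitrified and 0.26 ± 0.11 in frozen embryos (SE, adjusted p = 0.332 and 0.363), with all 3 arrays of each treatment above 0, and its frozen value was 0.41 without frozen array 2. IPO9, an importer of histones, was at -0.09 ± 0.14 and 0.28 ± 0.14, and its frozen value ran from 0.11 without frozen array 1 to 0.61 with the deposited log10 ratio. IPO5, which imports ribosomal proteins, was at 0.29 ± 0.15 and 0.09 ± 0.15, and its relative RANBP6 at -0.04 ± 0.10 and 0.01 ± 0.10. The 2 IPO9 probes had opposite signs in vitrified embryos.

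Among the 6 importin alpha adaptors, the vitrified fold changes ran from -0.38 for KPNA3 to 0.28 for KPNA2, with a median of 0.052. The frozen fold changes ran from -0.29 for KPNA3 to 0.22 for KPNA6, with a median of 0.012. KPNA3 had ratios of -0.65, -0.37 and -0.06 in vitrified embryos and 0.22, -0.42 and -0.60 in frozen embryos. Its vitrified arrays were all below 0 (-0.38 ± 0.18, adjusted p = 0.322), and its frozen arrays lay on both sides (-0.29 ± 0.18, adjusted p = 0.554). Without vitrified array 1 the vitrified value was -0.22, and the frozen value was -0.10 without frozen array 3 and -0.51 without frozen array 1. The second KPNA3 probe, which does not overlap the first, gave -0.31 and -0.25, and it was above 0 on vitrified array 3, at 0.09. KPNA5 was at -0.33 ± 0.15 in vitrified and -0.18 ± 0.15 in frozen embryos. KPNA1 was at 0.11 ± 0.11 and 0.20 ± 0.11. KPNA6 was at 0.06 ± 0.10 and 0.22 ± 0.10 (frozen value 0.13 without frozen array 1 and 0.40 with the deposited log10 ratio), and its 5 probes differed in sign in vitrified embryos. KPNA7, an adaptor known from mammalian oocytes and early embryos, was well above background in 6 of 12 channel measurements and stood at 0.05 ± 0.10 and 0.09 ± 0.10.

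KPNA2 is the adaptor known in mouse embryonic stem cells to carry the pluripotency factor OCT4. Its log2 intensity was 13.51, 13.45 and 13.22 in vitrified embryos, against 13.25, 12.99 and 13.13 in their controls. It was 13.36, 12.81 and 13.19 in frozen embryos, against 13.17, 12.96 and 13.49 in their controls. The vitrified signal was above its control on all 3 arrays, and the frozen signal on 1 of 3. The fold change was 0.28 ± 0.13 for vitrified (SE, adjusted p = 0.304) and -0.07 ± 0.13 for frozen embryos (adjusted p = 0.876). Without vitrified array 2 the vitrified value was 0.13. The overlapping probes of the pseudogene numbers gave 0.25 and 0.23 in vitrified and -0.07 and -0.12 in frozen embryos, and the last of these was 0.04 without frozen array 2.

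The 5 exportins had vitrified fold changes between -0.18 and 0.19 and frozen fold changes between -0.22 and 0.20. XPO1, the exporter of proteins with leucine-rich export signals, had ratios of -0.12, -0.10 and -0.36 in vitrified and -0.12, -0.21 and -0.38 in frozen embryos. Its brightest probe was below 0 on every array of both treatments, at -0.18 ± 0.10 and -0.22 ± 0.10 (SE, adjusted p = 0.408 and 0.416). Its other 2 probes, which do not overlap the first, gave -0.10 and -0.05 in vitrified and -0.19 and -0.08 in frozen embryos, and both were above 0 on vitrified array 2, at 0.24 and 0.22. Without vitrified array 3 the vitrified value of the brightest probe was -0.11. XPO5, the exporter of microRNA precursors, had ratios of 0.29, 0.23 and 0.04 in vitrified and -0.03, -0.08 and -0.08 in frozen embryos. For this probe the vitrified arrays were all above 0 and the frozen arrays all below it, as for 2.69% of all genes in either direction. Of its 4 other probes, which overlap it, 2 had a frozen array above 0, and in 1 of them frozen array 1 (0.0744) was also above vitrified array 3 (0.0718). The fold change was 0.19 ± 0.10 for vitrified and -0.06 ± 0.10 for frozen embryos, and the difference of 0.25 ± 0.13 did not pass (adjusted p = 0.71). With median centring the vitrified value was 0.10.

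XPO4 was at 0.11 ± 0.10 in vitrified and 0.20 ± 0.10 in frozen embryos (0.13 without frozen array 1), and XPO7 at 0.11 ± 0.09 and 0.17 ± 0.09. Both were above 0 on the 3 arrays of each treatment. XPOT, the exporter of transfer RNA, was among the more variable members: its ratios were 0.52, -0.07 and 0.19 in vitrified and 0.90, -0.25 and 0.22 in frozen embryos. The gene number LOC100350325, described as exportin 6, was at -0.20 ± 0.11 and 0.005 ± 0.11, and the sign of its frozen value changed under 3 alternatives.

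**Figure D3:**
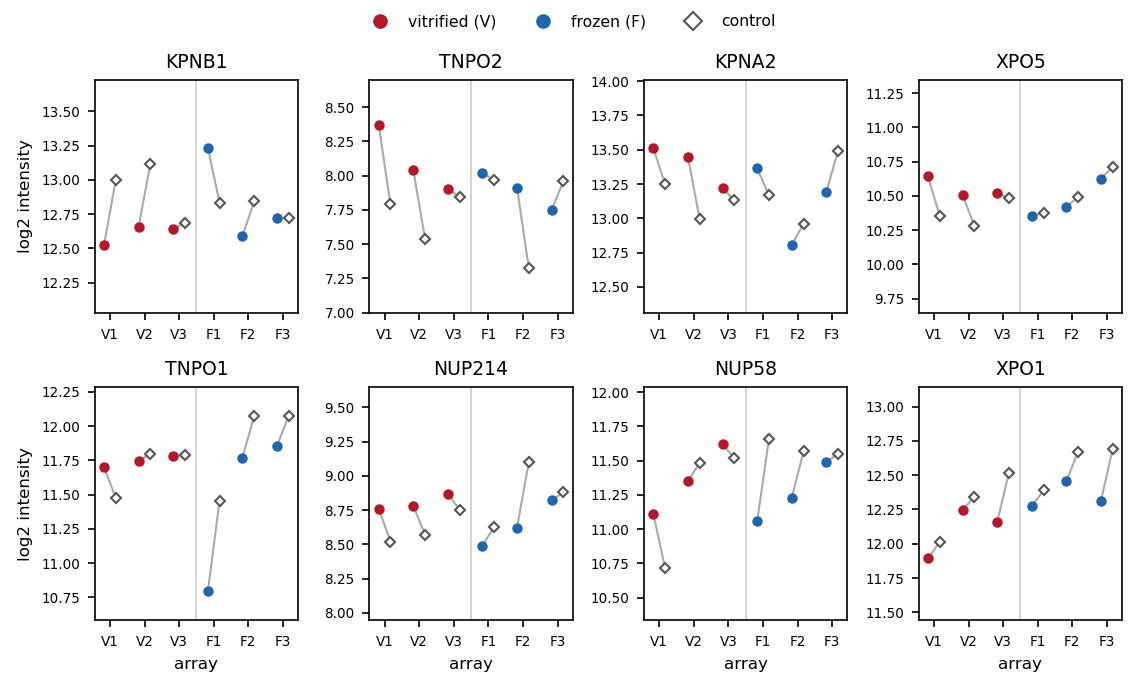
Log2 intensity of 8 members in the treated channel (filled) and the control channel (open) on the 3 vitrified (V) and 3 frozen (F) arrays, joined by a line for each array, with the same height of axis in every panel. The frozen signal of TNPO1, NUP58 and NUP214 lies below its control on all 3 arrays, and XPO1 lies below its control on all 6.

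The scaffold of the pore was represented by 8 nucleoporins, 4 of the Y-shaped outer ring complex (NUP37, NUP85, NUP107, NUP133) and 4 of the inner ring (NUP35, NUP93, NUP155, NUP205). Their median fold change was 0.051 in vitrified and 0.003 in frozen embryos. NUP133 had ratios of 0.49, 0.36 and 0.07 in vitrified and 0.11, -0.10 and -0.24 in frozen embryos. All vitrified arrays were above 0, at 0.31 ± 0.12 (SE, unadjusted p = 0.0353, adjusted p = 0.257), and the frozen value was -0.07 ± 0.12. The array carries 4 further NUP133 probes whose descriptions lack the words of the rule, all dimmer. These were at 0.00009, -0.02, 0.01 and -0.06 in vitrified embryos, and the mean over all 5 probes was at 0.05, so the brightest probe's value was not shared by the others. NUP37 had ratios of -0.31, 0.01 and -0.01 in vitrified and -0.03, 0.47 and 0.23 in frozen embryos. Its fold change was -0.06 ± 0.11 and 0.27 ± 0.11 (adjusted p = 0.815 and 0.356), with a difference of -0.33 ± 0.15.

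NUP107 and NUP85, of the same complex as NUP133, were at 0.01 ± 0.11 and 0.09 ± 0.10 in vitrified embryos, and at 0.08 ± 0.11 and -0.08 ± 0.10 in frozen embryos. In the inner ring, NUP155 was at -0.11 ± 0.13 in vitrified (-0.20 with median centring) and 0.15 ± 0.13 in frozen embryos. NUP35 was at -0.05 ± 0.16 and -0.30 ± 0.16, with frozen arrays at 0.39, -0.62 and -0.42. Its frozen value was -0.52 without frozen array 1, -0.18 without frozen array 2 and -0.12 without frozen array 3. NUP93 was at 0.10 ± 0.11 and -0.12 ± 0.11, and NUP205 at 0.10 ± 0.12 and 0.09 ± 0.12.

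The central channel is lined by nucleoporins with phenylalanine-glycine repeats, of which 3 were measured. NUP54 had ratios of 0.25, 0.02 and 0.02 in vitrified and 0.53, -0.005 and 0.48 in frozen embryos. Its fold change was 0.05 ± 0.11 and 0.28 ± 0.11 (SE, adjusted p = 0.852 and 0.322), and its 3 probes differed in sign in vitrified embryos. Without frozen array 2 the frozen value was 0.44. NUP58, which binds NUP54 in the channel, had ratios of 0.39, -0.13 and 0.10 in vitrified and -0.60, -0.34 and -0.06 in frozen embryos. All frozen arrays were below 0, at -0.37 ± 0.14 (unadjusted p = 0.0297, adjusted p = 0.317), and the vitrified value was 0.09 ± 0.14, with a sign that turned with median centring or without vitrified array 1. The difference was 0.45 ± 0.19 (adjusted p = 0.652), and by slide it was 0.86 on slide 1 and 0.04 on slide 2. Without frozen array 1 the frozen value was -0.20 and the difference 0.26. NUP98 was at -0.15 ± 0.10 and 0.03 ± 0.10, and its vitrified value ran from -0.26 with median centring to -0.07 with no dye term.

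At the cytoplasmic face, NUP214 and NUP88 anchor the filaments that receive export complexes. NUP214 had log2 intensities of 8.76, 8.78 and 8.87 in vitrified embryos, against 8.52, 8.57 and 8.75 in their controls. It had 8.49, 8.62 and 8.82 in frozen embryos, against 8.63, 9.11 and 8.88 in their controls. The vitrified signal was above its control on 3 of 3 arrays and the frozen signal below its control on 3 of 3. The fold change was 0.16 ± 0.10 and -0.26 ± 0.10 (SE, adjusted p = 0.46 and 0.355). The difference of 0.42 ± 0.14 had the smallest p of the members' brightest probes in that contrast (unadjusted p = 0.021). It did not pass over all probes (adjusted p = 0.614). It was 0.55 within slide 1 and 0.22 within slide 2, and without vitrified array 2 the vitrified value was -0.012. Without frozen array 2 the frozen value was -0.08. NUP88 was at 0.14 ± 0.10 and 0.08 ± 0.10, and without frozen array 2 its frozen value was at 0 (-4.2e-06). A dimmer NUP88 probe gave 0.14 in vitrified and 0.18 in frozen embryos. Another dimmer one, outside the words of the rule, gave 0.17 and 0.25 (limma's adjusted p = 0.383 and 0.317). NUP42, which works with the export factor GLE1, was at 0.13 ± 0.11 and -0.04 ± 0.11. NUP153, of the nuclear basket, was at 0.18 ± 0.12 and 0.25 ± 0.12, with vitrified arrays at 0.62, 0.02 and 0.08. Its vitrified value was 0.05 without vitrified array 1 and 0.32 without vitrified array 3.

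NUP62CL, named for its likeness to the carboxy-terminal part of the channel protein NUP62, had ratios of -0.10, -0.48 and -0.16 in vitrified and 0.04, -0.06 and 0.05 in frozen embryos. All 3 vitrified arrays were below all 3 frozen arrays. The fold change was -0.28 ± 0.09 in vitrified (SE, unadjusted p = 0.0175, adjusted p = 0.217) and -0.03 ± 0.09 in frozen embryos. Without vitrified array 2 the vitrified value was -0.18. Its 4 probes overlap and ran from -0.37 to -0.26 in vitrified embryos. In the probe at -0.37, vitrified array 1 (-0.23) was above frozen array 2 (-0.26). In the dimmest probe, at -0.26, the vitrified arrays were all below 0, at -0.09, -0.41 and -0.16. Its frozen arrays were all above 0, at 0.37, 0.003 and 0.10.

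**Figure D4:**
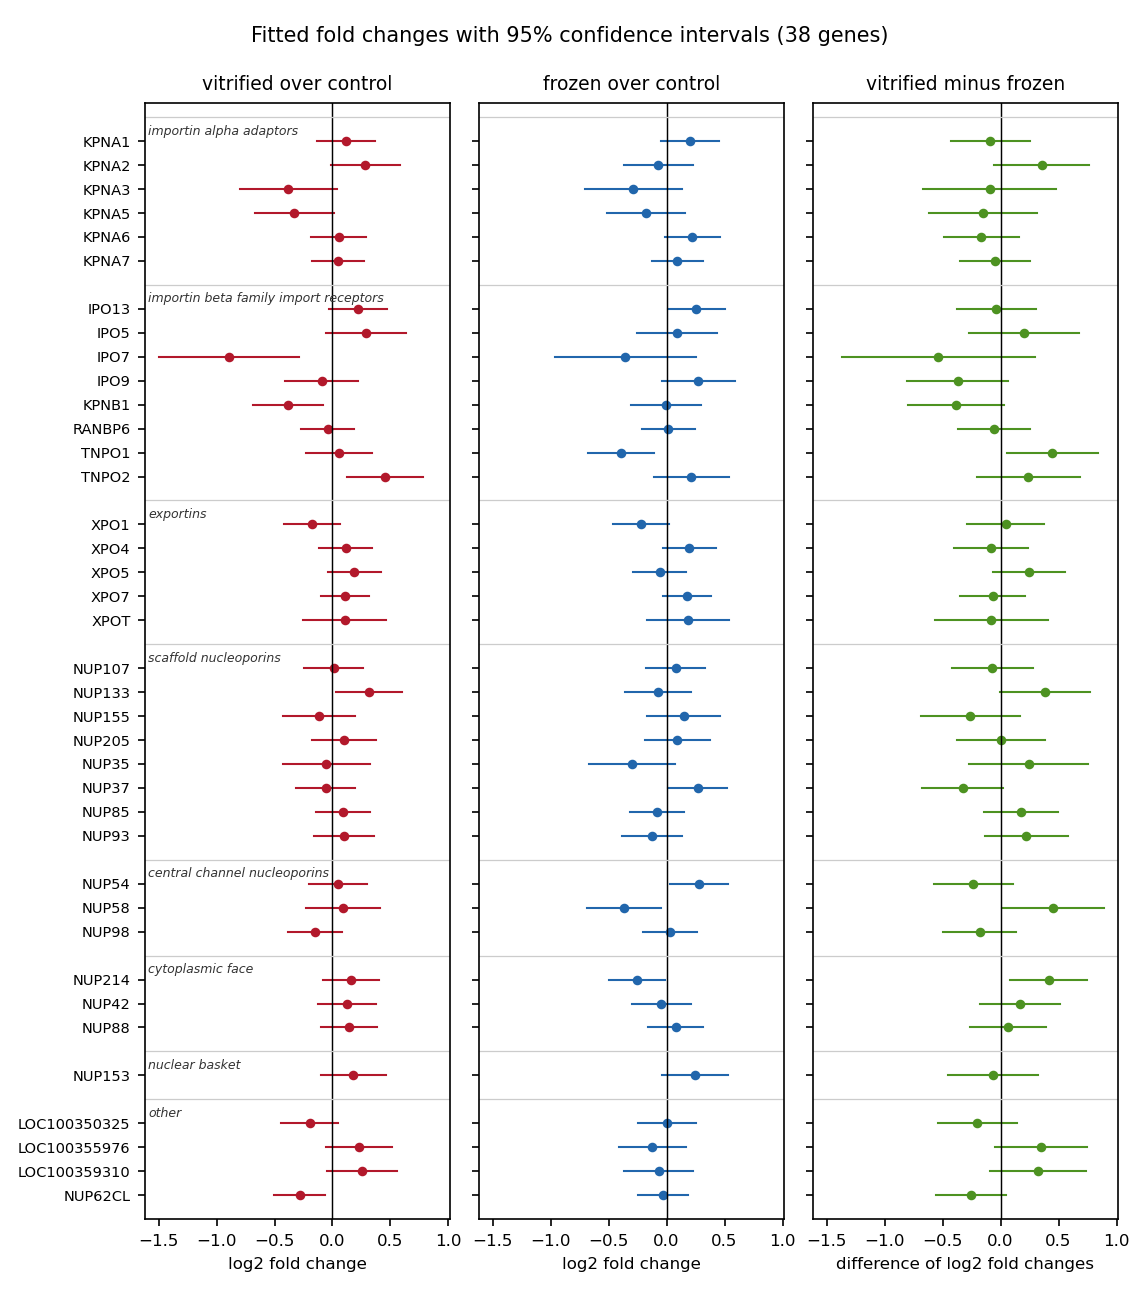
Points are fitted log2 fold changes of the 38 genes, grouped by role, and lines are their 95% confidence intervals, for vitrified over control, frozen over control and vitrified minus frozen. The interval of IPO7 for vitrified over control, -1.50 to -0.29, is the only one of that panel that passes -1.

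Direction on all 3 arrays was also counted over the members. In vitrified over control, 14 of 38 genes were above 0 on every array and 6 below, against 20.2% and 17.4% of all genes. The 14 include KPNA2 and both pseudogene numbers that share its bases. In frozen over control, 6 genes were above 0 on every array and 6 below, against 15.3% and 15.7%. Where a gene had several probes chosen by the words of the rule, all of them had the same sign in 16 of 21 genes for vitrified over control. For frozen over control this held in 17 and for the difference in 19. The genes with probes of both signs were IPO9, KPNA6, NUP37, NUP42 and NUP54 in vitrified embryos, KPNB1, NUP42, NUP62CL and XPO5 in frozen embryos, and NUP88 and NUP205 in the difference. All of these had at least 1 probe within 0.1 of 0 in that comparison. These counts leave out probes outside the words of the rule. With such probes included, NUP133 also had both signs in each of the 3 comparisons.

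The other genes of the pathway, named outside the word rule, gave no call either in any of the 3 comparisons. Of 13 genes of the Ran cycle, 5 were tested. RANBP10, a Ran-binding protein, was at 0.44 ± 0.14 in vitrified and 0.18 ± 0.14 in frozen embryos (SE, limma's unadjusted p = 0.0158 and 0.254). RCC1, which loads Ran with GTP, was at 0.16 ± 0.15 and 0.20 ± 0.15. RANGAP1, which makes Ran hydrolyse its GTP, was at -0.10 ± 0.14 and 0.13 ± 0.14. NUTF2, the importer of Ran itself, was at 0.34 ± 0.18 and 0.13 ± 0.18, and CSE1L, which returns importin alpha to the cytoplasm, at -0.06 ± 0.10 and 0.21 ± 0.10.

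Of 26 genes of messenger and other RNA export, 16 were tested, and their median was -0.064 in vitrified and -0.117 in frozen embryos. GLE1 was the lowest in vitrified embryos at -0.23 ± 0.15, and THOC3, of the complex that couples transcription to export, the lowest in frozen embryos at -0.40 ± 0.18. Of 17 genes of the nuclear envelope and lamina, 7 were tested, with medians of -0.197 and 0.081. LEMD3, an inner nuclear membrane protein, was at -0.33 ± 0.14 in vitrified and -0.25 ± 0.14 in frozen embryos. LMNB1, which encodes lamin B1, was at -0.20 ± 0.09 and 0.15 ± 0.09. At unadjusted p under 0.05 these lists held RANBP10 and LEMD3 in vitrified embryos, none in frozen embryos, and LBR and LMNB1 in the difference. Over all genes, 9.24% were on the higher and 7.23% on the lower side at that threshold in vitrified embryos. Those shares were 5.59% and 7.41% in frozen embryos, and 4.24% and 3.42% in the difference. The ion pumps and carriers matched through the word transporting, 28 of 32 tested, also had no call, with medians of -0.087 in vitrified and 0.106 in frozen embryos. Of these 28, 8 were above 0 in vitrified and 23 in frozen embryos, where 49.6% and 49.2% of all genes were above 0. In vitrified minus frozen, 4 of the 28 were above 0 and 24 below, where 53.6% of all genes were above 0. Their median difference was -0.174, and at unadjusted p under 0.05 there were 0 on the higher and 6 on the lower side.

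Markers of the blastocyst's parts and of other cells were read beside these values. Of 9 pluripotency markers 4 were tested and of 9 trophectoderm markers 7, and POU5F1, GATA3 and KRT8 were well above background in all 12 channel measurements. The pluripotency medians were -0.032 in vitrified and -0.454 in frozen embryos. In frozen embryos POU5F1 was at -0.82, OTX2 at -0.51 and ETV4 at -0.40, each at unadjusted p under 0.05 and none past the test. LIN28A, the other tested marker, was at 0.002 there. ETV4 was well above background in 8 of 12 channel measurements, and its frozen ratios were 0.10, -0.85 and -0.05. The trophectoderm medians were 0.214 and 0.266, with GATA2 the highest in both at 0.72 and 0.56, not past the test. ELF3 was below 0 in both, at -0.11 and -0.15, as were TFAP2C in vitrified (-0.05) and KRT19 in frozen embryos (-0.13). Of 15 endoderm and yolk sac markers 10 were tested, with a median of -0.057 in vitrified and -0.758 in frozen embryos. APOA2 passed the test in frozen embryos (log2 fold change -0.9996, adjusted p = 0.0423). Of the 10, 8 were below 0 in frozen embryos and 2 above, DAB2 at 0.66 (limma's unadjusted p = 0.00764) and AFP at 0.14. DAB2 was also above 0 in vitrified embryos, at 0.49. The median log2 intensity of those 10 was 8.50 to 8.92 in frozen embryos, against 9.39 to 9.60 in their controls. In vitrified embryos it was 8.98, 9.69 and 9.84, against 9.62, 9.19 and 9.50 in their controls. The endoderm markers' median ratio was -0.70, 0.26 and 0.35 on vitrified arrays 1 to 3, where IPO7 was at -1.38, -1.07 and 0.05. That median was -0.89, -0.74 and -0.84 on frozen arrays 1 to 3, where IPO7 was at 0.29, -0.71 and -0.37. Of 10 blood markers 5 were tested, with medians of 0.749 and 0.275, and of 6 uterine markers 3, with medians of 1.077 and 0.322. The blood markers' median log2 intensity was 7.93 to 8.66 in vitrified embryos, against 7.41 to 7.74 in their controls. In frozen embryos it was 7.51 to 7.94, against 7.64 to 7.73. Blood markers ran from 0.07 (CD68) to 3.61 (HBB2) in vitrified and from -0.22 to 1.92 in frozen embryos. The uterine median intensity was that of SCGB1A1 on every array, 8.42 to 10.72 in vitrified embryos against 7.87 to 8.19. In frozen embryos it was 8.39 to 9.66, against 7.61 to 7.70. The ratio of WFDC2 was -0.08 on vitrified array 1 and -0.80 on frozen array 3, and above 0 on the others. PGR was at 0.06 and 0.01. PTPRC, FGA and TTR were above background in none of the 12 channel measurements. The part of these markers in the members' values was not tested, and in such whole-embryo RNA fewer cells of a type and less RNA per cell cannot be told apart.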

How the data were processed

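RNA of 3 vitrified and 3 frozen blastocyst extracts was set against control extracts on 6 Agilent 2-colour arrays. Treated RNA carried Cy5 on replicates 1 and 3 and Cy3 on replicate 2, a dye swap. The files as deposited hold, per the file headers, an intensity for each spot and channel as the mean of its pixels, with a local background median, read with Agilent Feature Extraction 10.10.1.1 and unnormalised. They also hold a log10 ratio, red over green, which per the file headers the scanner software made from corrected and dye-normalised signals, and which served here as an alternative.

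From the intensities, limma 3.58.1 in R 4.3.3 corrected the background (normexp, offset 50) and normalised within arrays by loess, with control spots at weight 0. Outlier-flagged spots were left out, spots of a probe were averaged, and ratios were turned to treated over control. A probe was tested if the scanner software flagged at least 3 of its 12 channel signals as well above background, which left 30759. The fit had a coefficient per treatment and a dye term, with 3 residual degrees of freedom, and eBayes. P-values were adjusted by Benjamini-Hochberg across the 30759 probes and called at 0.05, and every p in the text is from limma's moderated test. Log2 intensities are after loess and Aquantile scaling. An exact test of 3 against 3 arrays cannot go below p = 0.1 and was not run. The fit was tested on simulated data.

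Symbols came from gene numbers and accessions in the files through RefSeq's rabbit table (mOryCun1.1): 21407 probes had a symbol, 1450 a number only, 43 several and 20703 none. Genes were named by rule: IPO7, then members past the test, then up to 5 per direction at unadjusted p under 0.01 with 1 sign on all 3 arrays, filled to 3 by smallest p, and the highest and lowest of each role. Other members are given as values to account for all 39. The members and lists were chosen with earlier results of these data known.

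Same-numbered arrays share a control extract per the labels, which pairs them. Deviations of paired arrays from their treatment's mean correlated at 0.017, 0.594 and 0.165 for replicates 1 to 3. Replicate 2 was the dye swap in both treatments, so the shared control and the dye cannot be told apart in these values. Slide 1 held vitrified 1, frozen 1 and frozen 2, and slide 2 the other 3 arrays. The alternatives changed the background, normalisation, filter, flags, dye term, replicate block, slide, spread, probe choice and word rule, or left out an array.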

Additional observations from a re-analysis of the deposited data

Results flagged for a closer look

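For the brightest probe of 2 members every vitrified array lay on one side of 0 and every frozen array on the other. Each ratio is over control, and 2.69% of all genes had this pattern. A dimmer KPNB1 probe and a dimmer NUP62CL probe also had it, with vitrified arrays below 0 and frozen arrays above. For NUP214, at the cytoplasmic face of the pore, the vitrified arrays were at 0.24, 0.21 and 0.12 and the frozen arrays at -0.14, -0.48 and -0.06. The difference between the treatments, vitrified minus frozen, was 0.4161 on the log2 scale, and limma's test of that difference did not pass over all probes (adjusted p = 0.614). For XPO5, the exporter of microRNA precursors, the vitrified arrays were at 0.29, 0.23 and 0.04 and the frozen arrays at -0.03, -0.08 and -0.08. Its difference was 0.248 and did not pass either (adjusted p = 0.71). XPO5 has 5 probes that overlap in sequence, and 2 of the others had a frozen array above 0.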

How the results depend on the processing

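The count of members past the test was 0 in all 3 comparisons under each of the 18 alternatives. Of 39 values for genes named by rule, 34 kept their direction under each alternative run for them, 17 or, for IPO9 and KPNA6 in frozen embryos, 16. The cause of the exceptions below was not tested. With median centring in place of loess, NUP58 in vitrified over control was at -0.0104, and the members' median was 0.0112 for vitrified over control and -0.141 for vitrified minus frozen. With the genes matched through the word transporting kept, the vitrified median was 9.26e-05. Without background correction, LOC100350325 in frozen over control was at -0.00374. Leaving out each array in turn, the values ran as follows. NUP214 in vitrified embryos ran from -0.0121 to 0.225 and NUP58 from -0.0180 to 0.240. In frozen embryos LOC100350325 ran from -0.0863 to 0.105, LOC100355976 from -0.271 to 0.0375 and NUP88 from -4.2e-06 to 0.171. The members' median of vitrified minus frozen ran from -0.0589 to 0.0431. With the replicate block the medians stayed at 0.089, 0.009 and -0.051 and no member was called, and the estimated correlation within a replicate number was -0.103. At 3 arrays a treatment, the median 95% interval of a member for a treatment over control reached 0.258 on the log2 scale to either side.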
